A study of Homo sapiens with 18 samples.

Results

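HuCCT1 is a human intrahepatic cholangiocarcinoma line. Its baseline expression was set against that of YSCCC and KKU-100, the other cholangiocarcinoma lines of a study that knocked down RNF213, a large ubiquitin ligase. Only shControl libraries, from cells carrying a stable non-targeting hairpin, entered the comparison: 3 of HuCCT1, 3 of YSCCC and 3 of KKU-100, out of 18 libraries in all. The labels give the tissue as bile duct for HuCCT1, liver for YSCCC and biliary tract for KKU-100. HuCCT1 and YSCCC grew in RPMI-1640 and KKU-100 in Ham's F12, each with 10% FBS. All 9 libraries came from cells stably transduced with lentivirus, and the genotype of the shControl cells is given as WT. Each group is 1 established line, so line, patient of origin and, for KKU-100, medium cannot be told apart. The replicates are labelled as biological replicates of 1 line, so p-values measure the spread between these samples and not between tumours. DNA was not analysed here.

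Cholangiocytes line the bile ducts and share an endodermal origin with hepatocytes. Transcription factors such as FOXA2, SOX17, HHEX and GATA6 take part in setting up liver and bile duct identity, while ducts are recognised by keratins such as KRT7 and KRT19, the adhesion molecule EPCAM and apical transporters such as CFTR. Cholangiocarcinomas can keep, lose or mix these programs with gastric, pancreatic or squamous ones.

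A gene was called for HuCCT1 only if it differed from YSCCC and from KKU-100 in the same direction, with an adjusted p under 0.05 and at least a 2-fold difference in each pair (edgeR's quasi-likelihood test on raw counts, Benjamini-Hochberg adjustment over 18010 tested genes). Levels are CPM, counts scaled to library size, and differences are log2 of HuCCT1 over the named line. Of the tested genes, 1893 (10.5%) were higher and 1635 (9.08%) were lower in HuCCT1 than in both other lines. With no overlap between the HuCCT1 libraries and the other 6, 1864 genes (10.3%) were higher and 1569 (8.71%) lower. Both pairs share the HuCCT1 libraries, so they are not independent. Against YSCCC alone, 3523 genes (19.6%) were higher and 4167 (23.1%) lower, and against KKU-100 alone, 4259 (23.6%) were higher and 3476 (19.3%) lower. A further 800 genes were past the threshold in both pairs but in opposite directions, which places HuCCT1 between the other lines. The median log2 difference over all tested genes was -0.02 against YSCCC and 0.01 against KKU-100. Among the called genes, 35 had no count in any of the 6 other libraries and 133 had no count in HuCCT1.

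**Figure D1:**
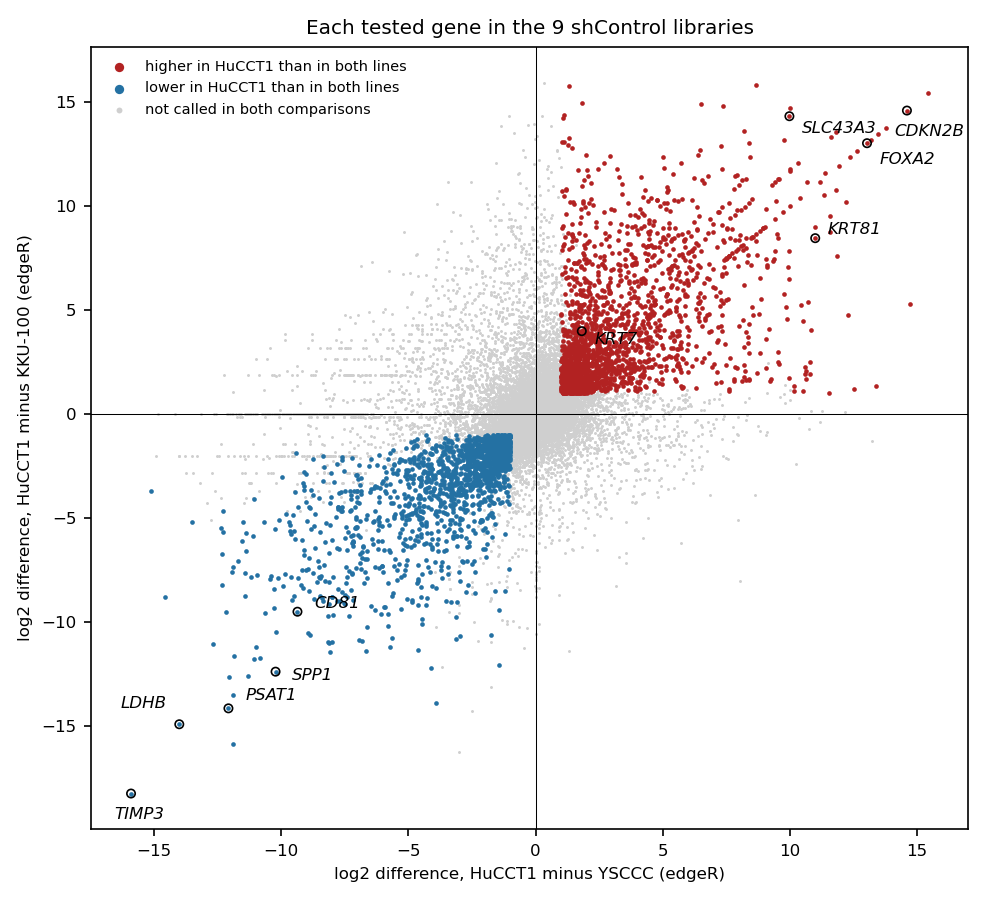
Each point is 1 of the 18010 tested genes, with the log2 difference of HuCCT1 from YSCCC on the x axis and from KKU-100 on the y axis. Red marks the 1893 genes higher and blue the 1635 genes lower than in both lines, and grey marks the rest; CDKN2B and FOXA2 lie far into the upper right corner, TIMP3 and LDHB into the lower left.

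The 9 libraries held 21056732 to 24967367 counts each, with 1.61% to 2.70% from mitochondrial genes. Replicates of a line differed beyond counting noise, and 3 libraries are named here for the gene group in which they stood out from their own line. HuCCT1 replicate 2 had high interferon-stimulated genes, YSCCC replicate 3 had low cell cycle genes, and KKU-100 replicate 1 had the highest cell cycle genes of its line. RNF213, the gene the study targeted, was at 397, 1268 and 438 CPM in HuCCT1, against 425, 377 and 523 CPM in YSCCC and 1272, 1010.2 and 1229 CPM in KKU-100. HuCCT1 replicate 2 lay with KKU-100 and the other HuCCT1 libraries with YSCCC, and the gene was called in neither pair (log2 difference 0.67, adjusted p = 0.165, from YSCCC and -0.74, adjusted p = 0.128, from KKU-100). Counts of called list members that move by over 1.5 times without 1 library are given beside the list. All list counts are to be read beside the 10.5% higher and 9.08% lower of all tested genes.

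HuCCT1 had more of several endodermal transcription factors than both other lines, and some of them, such as FOXA2 and HHEX, had no count in one or both of those lines. Of 23 biliary and hepatic endoderm factors, 19 passed the filter on low counts, and 8 of these were higher and 2 lower than in both lines. Their median log2 difference from the equally weighted mean of both lines was 1.86, beside 0.03 over all tested genes. It was 2.85 against YSCCC and 0.41 against KKU-100. The summed level of the list was 532, 628 and 514 CPM in HuCCT1. It was 223, 252 and 169 CPM in YSCCC and 601, 637 and 746 CPM in KKU-100. List medians below are fitted differences from the equally weighted mean of both lines unless a line is named. Where it differs, a second median is given, with a bound in place of the fitted value where a line had no count. PROX1, NR1H4 and NR1I2 were among the factors too low in all lines to be tested.

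FOXA2, a pioneer factor of foregut endoderm at 22581005 to 22585455 on chromosome 20 (GRCh38), had 60.5, 35.0 and 38.8 CPM in the HuCCT1 libraries and not a single count in the 6 others. Set against the limit that 3 counts over a line's libraries allow, it was at least 1174-fold higher than in YSCCC and at least 925-fold higher than in KKU-100 (adjusted p = 1.27e-05 and 1.11e-05). HHEX, an early foregut and liver bud factor, stood at 29.9, 26.3 and 29.3 CPM in HuCCT1, against 0.286, 0.684 and 1.65 CPM in YSCCC and no count in KKU-100. GATA6, a zinc finger factor of foregut and pancreas, reached 62.2, 49.8 and 42.5 CPM in HuCCT1, against 6.69, 7.56 and 7.18 CPM in YSCCC and 9.41, 9.83 and 8.50 CPM in KKU-100. Its 3 HuCCT1 values all lay above the other 6, with log2 differences of 2.85 and 2.48.

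FOXA3, HNF4A, SOX17 and TBX3 were also higher, at lower levels. FOXA3, a paralog of FOXA2, averaged 5.71 ± 1.56 CPM in HuCCT1, against 0.0366 ± 0.0359 CPM in YSCCC and 0.0808 ± 0.0557 CPM in KKU-100 (SD, n = 3 each). HNF4A, the master regulator of hepatocyte genes, was at 7.81, 8.003 and 7.80 CPM in HuCCT1, against 0.572, 0.380 and 1.69 CPM in YSCCC and 2.98, 1.80 and 1.30 CPM in KKU-100. SOX17, a factor of the extrahepatic bile duct and gallbladder, was detected at 0.945, 0.706 and 0.457 CPM in HuCCT1, with 1 count in YSCCC and none in KKU-100. TBX3, a T-box factor of liver bud outgrowth, differed by 2.18 from YSCCC and by 1.26 from KKU-100.

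CEBPA, a factor of mature hepatocytes, and ONECUT2, a cut-homeobox factor of liver and biliary development, ran the other way. CEBPA had 0.123, 0 and 0.207 CPM in HuCCT1, against 1.31, 2.16 and 2.44 CPM in YSCCC and 11.8, 10.2 and 9.86 CPM in KKU-100. ONECUT2 had 0.986, 1.51 and 1.99 CPM in HuCCT1, against 9.63, 13.4 and 10.95 CPM in YSCCC and 14.6, 13.3 and 16.6 CPM in KKU-100. Other members did not single out HuCCT1. SOX9, the standard biliary and progenitor factor, averaged 183 CPM in HuCCT1, against 65.2 CPM in YSCCC and 259 CPM in KKU-100, past the threshold against YSCCC only. FOXA1 averaged 15.7 CPM in HuCCT1, against 16.8 CPM in YSCCC and 15.7 CPM in KKU-100. GATA4 averaged 9.85 CPM in HuCCT1, between 0.260 CPM in YSCCC and 27.2 CPM in KKU-100.

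Of 17 gut and pancreas transcription factors, 7 were tested and 2 were higher, SPDEF and PDX1, with a median of -0.74, or -1.01 with genes at 0 at their bound. SPDEF, a factor of goblet and other secretory cells, had 23.8, 17.98 and 29.3 CPM in HuCCT1, against 1.55, 0.949 and 0.826 CPM in YSCCC and 0, 0.0451 and 0.193 CPM in KKU-100. PDX1, a pancreatic and duodenal factor, averaged 1.596 CPM in HuCCT1, against 0.1004 CPM in YSCCC and 0.635 CPM in KKU-100. The PDX1 call was lost, leaving 1 member, without HuCCT1 replicate 1 or 2, YSCCC replicate 1 or 2, or KKU-100 replicate 2 or 3 (adjusted p against KKU-100 0.191 without HuCCT1 replicate 2).

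**Figure D2:**
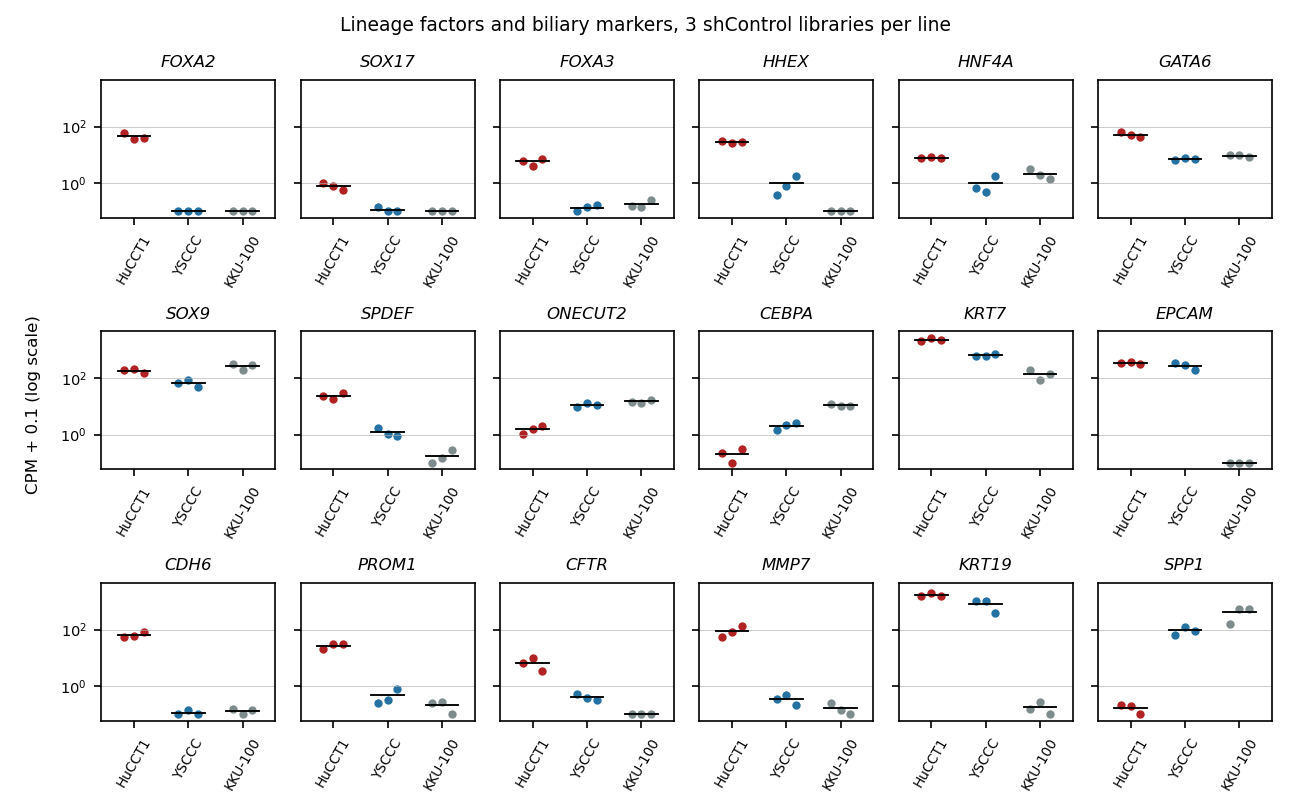
CPM plus 0.1 on a log axis for 18 lineage factors and epithelial genes, with 1 point per shControl library, a bar at the mean of each line, and HuCCT1 left of YSCCC and KKU-100. FOXA2, FOXA3 and CDH6 show points well off the floor in HuCCT1 only, EPCAM is on the floor in KKU-100 only, and CEBPA and SPP1 are lowest in HuCCT1.

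Biliary epithelial markers had the largest share of higher genes among the 41 lists. The lists were chosen with earlier results of these data known, so this rank is no test of biliary identity. Of 18 markers, 17 were tested, 11 were higher and 1 was lower, with a median log2 difference of 5.68 from the mean of both lines. The median was 1.82 against YSCCC and 5.97 against KKU-100. KRT7, a simple-epithelium keratin of bile ducts, had 1970.0, 2645 and 2134 CPM in HuCCT1, against 617, 617 and 684 CPM in YSCCC and 193, 87.1 and 144 CPM in KKU-100, with no overlap. CDH6, a cadherin first known from kidney, had 52.1, 59.8 and 83.7 CPM in HuCCT1, with 1 count over the YSCCC libraries and 2 over those of KKU-100. MMP7, a matrix protease made by ductal cells, had 52.3, 83.2 and 136 CPM in HuCCT1, against 0.245, 0.380 and 0.108 CPM in YSCCC and 0.157, 0.0451 and 0 CPM in KKU-100. PROM1, the progenitor surface protein CD133, averaged 27.1 ± 6.47 CPM in HuCCT1, against 0.370 ± 0.303 CPM in YSCCC and 0.112 ± 0.0980 CPM in KKU-100 (SD, n = 3 each). CFTR, the apical chloride channel of bile ducts, had 6.37, 9.56 and 3.44 CPM in HuCCT1, against 0.408, 0.266 and 0.215 CPM in YSCCC and no count in KKU-100. BICC1, an RNA-binding protein, ANPEP, an apical aminopeptidase, DCDC2, a ciliary protein, and AQP1, a water channel, were also higher.

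SPP1, the secreted glycoprotein osteopontin, was the only marker of the list called lower. It had 0.123, 0.0942 and 0 CPM in HuCCT1, against 64.9, 123 and 89.5 CPM in YSCCC and 161, 527 and 548 CPM in KKU-100, that is 5 counts over the HuCCT1 libraries beside 7327 and 26118. The general epithelial markers split KKU-100 from the other lines instead. EPCAM had 329, 364 and 322 CPM in HuCCT1, against 334, 282 and 193 CPM in YSCCC and no count in KKU-100. KRT19 had 1527, 2006 and 1528 CPM in HuCCT1, against 1002, 1030.5 and 388 CPM in YSCCC and 5 counts in all over KKU-100. Its call rested on a log2 difference of 1.06 from YSCCC (adjusted p = 0.0322) and was lost without any 1 HuCCT1 library (adjusted p 0.0504, 0.0886 and 0.053 without replicates 1, 2 and 3) or without YSCCC replicate 3 (log2 difference 0.70).

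Keratins gave 6 higher genes of 16 tested, with a median of 2.10, or 1.94 with genes at 0 at their bound. KRT81, a type II hair keratin at 52285913 to 52291534 on chromosome 12, had 1485, 2344 and 1564 CPM in HuCCT1, against 0.449, 0.456 and 1.69 CPM in YSCCC and 4.55, 2.84 and 7.88 CPM in KKU-100. Each HuCCT1 library was far above all others, with log2 differences of 10.99 ± 0.68 and 8.46 ± 0.61 (SE). KRT81 and KRT86 are near-identical in parts, so the share of reads between them is uncertain. KRT5 and KRT6A, basal and stress keratins that sit beside each other on chromosome 12, averaged 1.74 and 3.40 CPM in HuCCT1, against 0.118 and 0.803 CPM in YSCCC and 0.0150 and 0.0973 CPM in KKU-100. The KRT6A call was lost without any 1 of 6 libraries, and without HuCCT1 replicate 2, or without replicate 3, 3 keratins were called in place of 6.

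Mucins and gastrointestinal secretory genes gave 8 higher and 1 lower of 17 tested, with a median of 3.47, or 3.45 with genes at 0 at their bound. Their summed level was nevertheless below that of YSCCC, at 490 to 935 CPM in HuCCT1, against 1111 to 1194 CPM in YSCCC and 44.4 to 62.4 CPM in KKU-100. MUC5AC, the gel-forming mucin of stomach and airway, had 47.1, 74.1 and 58.0 CPM in HuCCT1, against 0.531, 0.152 and 0.934 CPM in YSCCC and 1 count over KKU-100. AGR2, a disulfide isomerase needed for mucin folding, had 59.4, 115 and 116 CPM in HuCCT1, against 3.02, 6.53 and 5.997 CPM in YSCCC and 0.0523, 0 and 0.145 CPM in KKU-100. TSPAN8, a tetraspanin, averaged 40.2 ± 11.9 CPM in HuCCT1, against 0.946 ± 0.168 CPM in YSCCC and 2.85 ± 1.36 CPM in KKU-100 (SD, n = 3 each). CEACAM6, an adhesion protein of gut epithelium, varied within HuCCT1 at 5.96, 25.5 and 29.7 CPM, all above 1.35, 0.836 and 2.77 CPM in YSCCC and 0.157, 0.0451 and 0 CPM in KKU-100. The lower gene, CEACAM1, lost its call without HuCCT1 replicate 1 or 3 or YSCCC replicate 3.

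Hepatocyte genes were mostly silent in all 3 lines. Only 8 of 24 passed the filter on low counts (median 1.04), and ALB, APOA1, APOB, TTR and TF were among those that did not. SERPINA1, the alpha-1 antitrypsin gene, was the member that marked HuCCT1, at 203, 269.6 and 237 CPM, against 2.53, 4.67 and 7.11 CPM in YSCCC and 8.94, 28.3 and 12.998 CPM in KKU-100. APOC1, an apolipoprotein, averaged 3.02 CPM in HuCCT1, against 0.254 CPM in YSCCC and 0.0161 CPM in KKU-100, while its neighbour APOE averaged 0.112 CPM, against 1.67 CPM in YSCCC and 1.72 CPM in KKU-100. AFP, the fetal liver albumin homolog, had no count in HuCCT1 and averaged 0.339 CPM in YSCCC and 1.02 CPM in KKU-100. CPS1, the first urea cycle enzyme, was lower in HuCCT1 too, by -1.40 and -3.43. The call of CYP2E1, a cytochrome P450 (higher), was lost without HuCCT1 replicate 1 or without YSCCC replicate 1 or 2.

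Epithelial transcription factors separated KKU-100, not HuCCT1, from the rest, and 3 members were lower in HuCCT1. Of 17 tested factors and splicing regulators, EHF was higher and TFAP2C, TP63 and TFAP2A were lower. The median was -0.66 against YSCCC and 4.33 against KKU-100, with 2.56 from the mean of both. GRHL2, a factor that maintains epithelial junctions, averaged 109 CPM in HuCCT1, against 92.1 CPM in YSCCC and no count in KKU-100. TFAP2C, an AP-2 factor of ectoderm and placenta, had 3 counts over the HuCCT1 libraries, against 91.1, 100.4 and 45.0 CPM in YSCCC and 40.3, 28.98 and 39.8 CPM in KKU-100. TP63, the master factor of basal and squamous cells, averaged 0.689 CPM in HuCCT1, against 65.9 CPM in YSCCC and 3.92 CPM in KKU-100, a call lost without HuCCT1 replicate 1 or 2 or KKU-100 replicate 1. EHF, an ETS factor of glandular epithelium, had 211, 298 and 293 CPM in HuCCT1, against 101, 89.6 and 73.9 CPM in YSCCC and 28.8, 65.1 and 34.5 CPM in KKU-100. Without HuCCT1 replicate 1 or 3, or without YSCCC replicate 3, 2 members were called higher in place of 1.

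Junction genes followed that split. Of 28 tested, 5 were called, all higher in HuCCT1, with a median of 1.85. The median was -0.18 against YSCCC and 3.87 against KKU-100. CLDN3, a tight junction claudin, had 12.2, 16.9 and 11.2 CPM in HuCCT1, against 3 counts over YSCCC and none over KKU-100. DSG3 and PKP1, desmosomal genes of stratified epithelium, averaged 21.9 and 9.55 CPM in HuCCT1, against 0.344 and 0.0136 CPM in YSCCC and 0.0925 and 0.0475 CPM in KKU-100. CDH1, the E-cadherin gene, named here after its values were seen, averaged 279.8 CPM in HuCCT1, between 1223 CPM in YSCCC and 2.32 CPM in KKU-100.

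Mesenchymal genes were called in both directions, at shares close to those over all tested genes. Of 17 tested, 3 were higher (17.6%, beside 10.5% of all tested genes) and 2 lower (11.8%, beside 9.08%), with a median of -1.31. The median was 0.24 against YSCCC and -1.1 against KKU-100. VIM, the intermediate filament vimentin, had 149, 77.7 and 119.7 CPM in HuCCT1, against 0.327, 0.608 and 0.754 CPM in YSCCC and 17.1, 20.3 and 16.5 CPM in KKU-100. CDH2, N-cadherin, had 136, 140.2 and 166 CPM in HuCCT1, against 9.96, 15.2 and 4.81 CPM in YSCCC and 19.2, 33.2 and 30.2 CPM in KKU-100. All 3 HuCCT1 values of both genes lay above the other 6. AXL, a receptor tyrosine kinase, averaged 736 CPM in HuCCT1, against 0.508 CPM in YSCCC and 337 CPM in KKU-100, and its call was lost without KKU-100 replicate 3 (log2 difference 0.93 from KKU-100). FBN1 and LOXL2, a microfibril protein and a collagen cross-linking enzyme, were lower, by -6.42 and -3.41 against YSCCC and by -6.02 and -5.54 against KKU-100. Of 7 tested transcription factors of epithelial-mesenchymal transition (median -1.75), 1 was higher and 1 lower. Each is 14.3% of the list, beside 10.5% and 9.08% of all tested genes. SNAI2 averaged 47.2 CPM in HuCCT1, against 11.1 CPM in YSCCC and 0.285 CPM in KKU-100, and was higher. ZEB2, a repressor of E-cadherin, averaged 0.677 CPM in HuCCT1, against 2.17 CPM in YSCCC and 13.2 CPM in KKU-100, and was lower. ZEB1, its paralog, was between the lines at 6.46 CPM in HuCCT1, against 1.54 CPM in YSCCC and 123 CPM in KKU-100.

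Genes that set HuCCT1 apart by the widest margin included a block on chromosome 9. CDKN2B, the CDK inhibitor p15, at 22002903 to 22009305, had 123, 160.3 and 115 CPM in HuCCT1 and no count in the 6 other libraries, so it was at least 3487-fold higher than in YSCCC and at least 2748-fold higher than in KKU-100 (adjusted p = 2.13e-06 and 1.72e-06). CDKN2A, the gene of p16 and p14ARF at 21967753 to 21995301, had 75.1, 80.4 and 71.0 CPM in HuCCT1 and likewise none elsewhere. MTAP, the methylthioadenosine phosphorylase gene just beside it, had 132, 144 and 159.7 CPM in HuCCT1, no count in YSCCC and 2.88, 5.00 and 3.19 CPM in KKU-100. CDKN2B-AS1, which overlaps both inhibitor genes, had 14.4, 13.4 and 12.6 CPM in HuCCT1, 1 count in YSCCC and none in KKU-100; reads in shared stretches cannot be assigned to 1 gene for certain. With DMRTA1, these were 5 neighbours in a row among tested genes with a gene symbol, from 21802636 to 22455740, all higher in HuCCT1. Tested genes with clone-based or LINC names were not considered.

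Other genes of the widest margin came from many pathways. SLC22A3, an organic cation transporter on chromosome 6, had 64.1, 38.5 and 47.4 CPM in HuCCT1 and no count in any other library. MT1E, a metallothionein that binds zinc and copper, had 82.8, 52.4 and 44.4 CPM in HuCCT1 and likewise none elsewhere. Both genes thus separated the lines completely, with at least 1311-fold and 1570.4-fold higher levels than in YSCCC. SLC43A3, a purine base transporter on chromosome 11, had 415, 488 and 424 CPM in HuCCT1, against 0.572, 0.266 and 0.467 CPM in YSCCC and 0.0523, 0 and 0 CPM in KKU-100. CYP2S1, an extrahepatic cytochrome P450, had 65.6, 59.9 and 70.5 CPM in HuCCT1 and 1 count in all other libraries together. RAC2, a GTPase best known from blood cells, had 186, 179 and 164 CPM in HuCCT1, against 0, 0.342 and 0.144 CPM in YSCCC and 0.0523, 0.0901 and 0 CPM in KKU-100. G0S2, an inhibitor of lipolysis, SERPINB2, an inhibitor of plasminogen activators, PDLIM4, an actin-associated protein, and SLC17A9, a vesicular nucleotide transporter, belonged to the same set. SERPINB2 was the most variable of these within HuCCT1, at 135, 53.3 and 50.2 CPM.

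The widest margins in the other direction were genes silent in HuCCT1. TIMP3, an inhibitor of matrix metalloproteinases at 32801701 to 32863043 on chromosome 22, had no count in HuCCT1, against 283, 468 and 238 CPM in YSCCC and 1507, 1729.6 and 1746 CPM in KKU-100. It was at least 7656-fold lower than in YSCCC and at least 38572-fold lower than in KKU-100 (adjusted p = 5.12e-07 and 1.88e-07). LDHB, the heart-type lactate dehydrogenase subunit at 21635342 to 21757857 on chromosome 12, had 1 count over the HuCCT1 libraries, against 329.9, 325 and 323 CPM in YSCCC and 611, 632 and 578 CPM in KKU-100. PSAT1, the transaminase of serine synthesis, had 2 counts over HuCCT1, against 62.4, 48.4 and 331 CPM in YSCCC and 719, 566 and 566 CPM in KKU-100. Every one of the 6 other libraries was far above HuCCT1 for these genes, with YSCCC replicate 3 highest in its line for PSAT1.

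CD81, a tetraspanin found on most cell types, had 0.123, 0.188 and 0.207 CPM in HuCCT1, against 127, 113 and 112 CPM in YSCCC and 97.2, 129 and 159.7 CPM in KKU-100. PTPRS, a receptor tyrosine phosphatase, had 4 counts over HuCCT1, against 457, 568 and 208 CPM in YSCCC and 116, 129 and 156 CPM in KKU-100. IRX3, an Iroquois homeobox factor, had no count in HuCCT1, against 25.8, 32.6 and 10.7 CPM in YSCCC and 27.9, 40.5 and 32.5 CPM in KKU-100. The set also held NLRP2, an inflammasome-related protein, S1PR3, a sphingosine phosphate receptor, PAPPA, a protease of IGF-binding proteins, and KCTD15. The level of NLRP2, for example, averaged 0.0588 CPM in HuCCT1, against 294 CPM in YSCCC and 46.1 CPM in KKU-100.

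**Figure D3:**
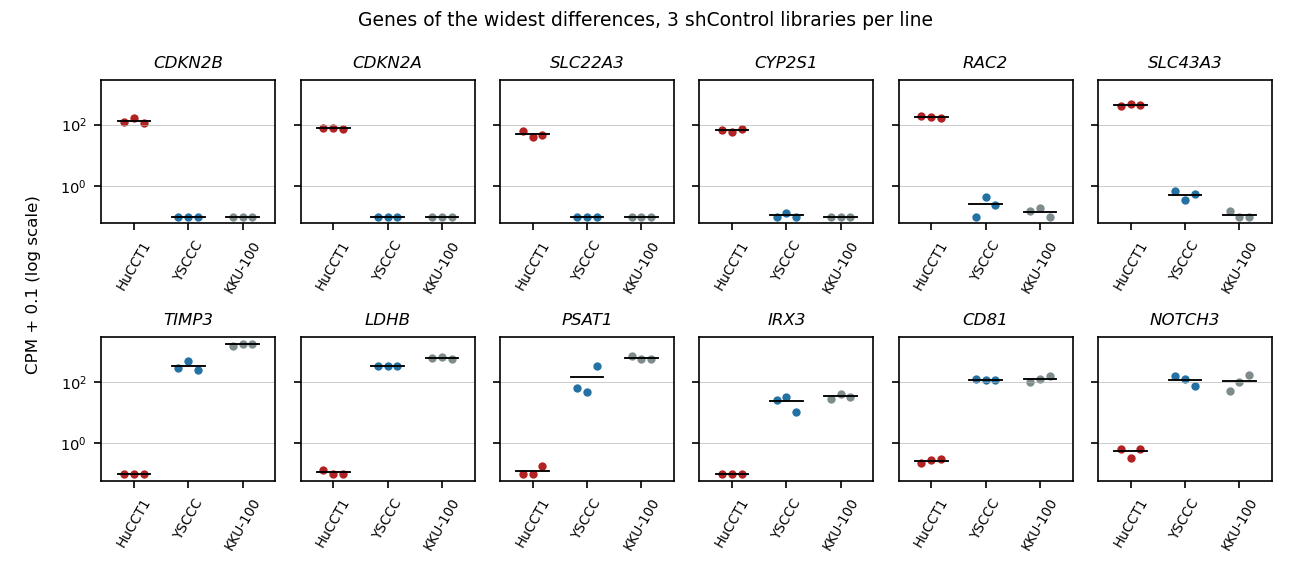
CPM plus 0.1 on a log axis for 12 genes with wide margins, with 1 point per shControl library, a bar at the mean of each line, and HuCCT1 left of YSCCC and KKU-100. CDKN2B, CDKN2A and SLC22A3 sit at the floor in all 6 libraries of YSCCC and KKU-100, TIMP3 and IRX3 at the floor in HuCCT1.

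HOX genes, which record position along the body axis, gave a mixed picture with 7 higher and 4 lower of 25 tested and a median of -0.29. The higher ones were HOXB2 to HOXB6 in a block, HOXA2 and HOXA3. HOXB3 had 138, 80.7 and 91.1 CPM in HuCCT1, against 0.367, 0.266 and 0.359 CPM in YSCCC and 7.48, 5.81 and 6.81 CPM in KKU-100. HOXB5 and HOXB6 averaged 30.1 and 32.1 CPM in HuCCT1, against 0.0509 and 0.175 CPM in YSCCC and 2.42 and 3.10 CPM in KKU-100. The block ended at HOXB6: HOXB7 averaged 1.35 CPM in HuCCT1, against 0.914 CPM in YSCCC and 25.6 CPM in KKU-100, and HOXB9 averaged 15.3 CPM, against 0.800 CPM in YSCCC and 25.9 CPM in KKU-100, neither called. HOXA4, HOXA5, HOXC9 and HOXC13 were lower. HOXC13 had 2 counts over HuCCT1, against 15.4, 25.5 and 17.7 CPM in YSCCC and 0.105, 0.270 and 0.628 CPM in KKU-100. HOXC9 lost its call when HuCCT1 replicate 2 and YSCCC replicate 3 were left out together.

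Matrix genes leaned toward HuCCT1. Of 29 collagens and matrix glycoproteins tested, 13 were higher and 3 lower, with a median of 1.43. THBS1, a matrix glycoprotein that activates TGF-beta, had 3690.0, 4166 and 4797 CPM in HuCCT1, against 262, 289 and 79.2 CPM in YSCCC and 45.1, 41.3 and 17.7 CPM in KKU-100. COL17A1, a hemidesmosome collagen of basal epithelium, had 299, 542 and 355 CPM in HuCCT1, against 6.25, 7.03 and 1.40 CPM in YSCCC and 5.07, 2.66 and 3.09 CPM in KKU-100. No HuCCT1 library overlapped the others for either gene. COL6A2 averaged 456 CPM in HuCCT1, against 3.25 CPM in YSCCC and 41.4 CPM in KKU-100, and COL7A1, the anchoring fibril collagen, averaged 98.1 CPM, against 4.76 CPM in YSCCC and 10.3 CPM in KKU-100. The fibrillar genes COL3A1, COL5A2 and COL12A1 were lower, COL3A1 with 1 count over HuCCT1 against 9.55 CPM on average in YSCCC and 7.12 CPM in KKU-100. Of 15 integrins (median 0.68), ITGB4, the partner of the basement membrane receptor, and ITGB2, the leukocyte beta subunit, were higher and ITGA1 was lower. The integrin shares were 13.3% higher and 6.67% lower, beside 10.5% and 9.08% of all tested genes. ITGB2 had 72.8, 85.0 and 73.5 CPM in HuCCT1, against 0.286, 0.266 and 0.251 CPM in YSCCC and 3.03, 2.03 and 4.93 CPM in KKU-100. A second integrin was called lower without YSCCC replicate 3 or KKU-100 replicate 1.

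Proteases and their inhibitors gave 10 higher and 3 lower of 27 tested, with a median of 1.80, or 1.72 with genes at 0 at their bound. MMP1, a collagenase, had 263, 31.1 and 26.8 CPM in HuCCT1, so replicate 1 held most of its counts, against 0.939, 1.06 and 1.76 CPM in YSCCC and 0.418, 0.992 and 0.773 CPM in KKU-100. Its call was lost with DESeq2. ADAM8, a membrane metalloprotease, had 201, 180.2 and 134 CPM in HuCCT1, against 1.35, 1.86 and 2.30 CPM in YSCCC and 3.24, 5.00 and 6.91 CPM in KKU-100. TMPRSS2, a surface serine protease, averaged 20.6 CPM in HuCCT1, against 0.408 CPM in YSCCC and 0.0934 CPM in KKU-100. The 3 lower genes were TIMP3, the protease inhibitor SERPINE2 and ADAMTS1.

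Growth factor ligands were split. Of 14 genes of the EGFR family tested (median -0.14), the ligands AREG, TGFA and HBEGF were higher and the ligands EPGN, NRG4 and EGF lower in HuCCT1, while no receptor of the family was called. AREG had 430.4, 461 and 390.0 CPM in HuCCT1, against 17.8, 13.3 and 29.6 CPM in YSCCC and 28.3, 12.1 and 7.15 CPM in KKU-100. TGFA had 148, 203 and 137 CPM in HuCCT1, against 53.03, 51.5 and 49.6 CPM in YSCCC and 14.4, 19.2 and 9.52 CPM in KKU-100. EPGN had 0.740, 0.424 and 0.166 CPM in HuCCT1, against 229, 169.7 and 171 CPM in YSCCC and 344, 217 and 83.6 CPM in KKU-100. Within 1 ligand family, HuCCT1 was thus highest for AREG and TGFA and lowest for EPGN, without overlap. HBEGF lost its call without HuCCT1 replicate 1 or KKU-100 replicate 1 or 3.

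Of 23 other receptor tyrosine kinases tested (median 0.52), 5 were higher and 5 lower. FGFR2, a receptor altered in a subset of intrahepatic cholangiocarcinomas, had 7.36, 14.3 and 17.7 CPM in HuCCT1, against 0.408, 0.380 and 0.503 CPM in YSCCC and 0.732, 1.58 and 0.676 CPM in KKU-100. EPHB2, an ephrin receptor, averaged 225 CPM in HuCCT1, against 69.9 CPM in YSCCC and 7.09 CPM in KKU-100. INSR, the insulin receptor, had 4.52, 3.86 and 5.23 CPM in HuCCT1, against 40.2, 39.8 and 36.6 CPM in YSCCC and 30.1, 33.1 and 52.9 CPM in KKU-100. The number of lower receptors was 2 without HuCCT1 replicate 2 and 3 without KKU-100 replicate 3; DDR2, FGFR3 and RET were among the unstable ones.

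Of 18 ERK output genes, FOSL1 and CCND1 were called, both higher (11.1%, beside 10.5% of all tested genes). The list median was 0.32, with 1.3 against YSCCC and -0.6 against KKU-100. FOSL1, an AP-1 subunit, had 819, 465 and 468 CPM in HuCCT1, against 1.39, 1.67 and 2.51 CPM in YSCCC and 307, 149.9 and 95.8 CPM in KKU-100. CCND1, cyclin D1, averaged 601 ± 122 CPM in HuCCT1, against 184 ± 24.2 CPM in YSCCC and 213 ± 67.2 CPM in KKU-100 (SD, n = 3 each). YAP and TEAD targets gave 7 higher and 1 lower of 20 (median 0.45). ANKRD1, a YAP-induced ankyrin repeat protein, had 756, 308 and 423 CPM in HuCCT1, against 3.92, 4.44 and 3.56 CPM in YSCCC and 0.732, 1.67 and 0.193 CPM in KKU-100. F3, tissue factor, averaged 1297 CPM in HuCCT1, against 115 CPM in YSCCC and 117 CPM in KKU-100. TEAD2, one of the transcription factors that YAP binds, went the other way, at 0.247, 0.188 and 0.207 CPM in HuCCT1, against 74.4, 62.2 and 49.1 CPM in YSCCC and 38.1, 74.9 and 65.7 CPM in KKU-100. Without YSCCC replicate 3, 2 genes of this list were called lower.

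Wnt and Notch genes were called in both directions. Of 23 Wnt ligands and feedback genes tested, DKK1, WNT7A, WNT10A and TCF7 were higher and RNF43 and WNT9A lower. Their shares were 17.4% higher and 8.7% lower, beside 10.5% and 9.08% of all tested genes. The list median was 0.76, or 0.56 with genes at 0 at their bound, but -1.11 against YSCCC and 0.96 against KKU-100. DKK1, a secreted Wnt antagonist, had 422, 307 and 322 CPM in HuCCT1, against 0.122, 0.304 and 0.144 CPM in YSCCC and 48.5, 104 and 30.9 CPM in KKU-100. RNF43, a ubiquitin ligase that removes Wnt receptors, had 3 counts over HuCCT1, against 12.1, 10.8 and 15.05 CPM in YSCCC and 0.366, 0.451 and 0.193 CPM in KKU-100. Of 20 Notch genes (median 0.06), the glycosyltransferases LFNG and MFNG and the ligand JAG2 were higher (15%), and NOTCH3, DLL1, DLL3 and HEY2 were lower (20%). NOTCH3, a Notch receptor, had 0.534, 0.235 and 0.581 CPM in HuCCT1, against 152, 127 and 72.4 CPM in YSCCC and 49.4, 103 and 164 CPM in KKU-100. LFNG, which modifies Notch receptors, averaged 13.004 CPM in HuCCT1, against 0.900 CPM in YSCCC and 0.213 CPM in KKU-100.

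TGF-beta and BMP genes gave 7 higher and 3 lower of 28 tested (median 0.47). INHBA, the activin A subunit, had 531, 362 and 314 CPM in HuCCT1, against 7.59, 6.11 and 0.934 CPM in YSCCC and 15.3, 11.04 and 2.95 CPM in KKU-100. BMP4, a bone morphogenetic protein, had 48.9, 65.8 and 83.3 CPM in HuCCT1, against 2.69, 2.47 and 2.48 CPM in YSCCC and 0.470, 2.30 and 1.55 CPM in KKU-100. GDF15, a stress-induced family member, had 14.8, 7.86 and 8.13 CPM in HuCCT1, against 119.7, 101 and 399 CPM in YSCCC and 362, 456 and 458 CPM in KKU-100. Ligands of 1 superfamily thus ran in opposite directions, each without overlap between HuCCT1 and the other lines.

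Interferon-stimulated genes did not mark HuCCT1 as a line. Of 40 tested, HERC5, a ligase of the ubiquitin-like protein ISG15, was the 1 gene called, and it was lower. The median was 0.55 from the mean of both lines, 2.73 against YSCCC and -1.70 against KKU-100, so HuCCT1 lay between them. The summed level of the list was 1767, 14309 and 2863 CPM in HuCCT1, against 1516, 1295 and 1391 CPM in YSCCC and 23313, 17518 and 16726 CPM in KKU-100. HuCCT1 replicate 2 was thus close to KKU-100, and 2 genes were called lower without it. RNF213, itself interferon-induced, was also highest in that replicate within HuCCT1, as given above.

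Among 24 antigen presentation genes, HLA-DQB1 and CD74, the class II invariant chain, were higher. The list median was -0.48, with 0.06 against YSCCC and -0.81 against KKU-100. CD74 had 182, 198 and 154 CPM in HuCCT1, against 47.1, 50.1 and 92.0 CPM in YSCCC and 2.67, 2.79 and 2.08 CPM in KKU-100. HLA-DRB1 was called lower, but HLA genes are highly polymorphic and near-identical to each other, and the call was lost without HuCCT1 replicate 2 or 3 or KKU-100 replicate 1 or 2. Of 13 immune checkpoint ligands tested (median 0.24), TNFRSF14, LGALS9, CD274 and CD47 were higher and ICOSLG was lower. CD274, the gene of PD-L1, had 197, 107 and 89.7 CPM in HuCCT1, against 12.3, 10.3 and 13.2 CPM in YSCCC and 51.4, 26.9 and 15.4 CPM in KKU-100. CD47, the signal that inhibits phagocytosis, had 338, 468 and 392 CPM in HuCCT1, against 146, 129 and 139 CPM in YSCCC and 79.6, 103 and 95.9 CPM in KKU-100. For both, the lowest HuCCT1 library was above the highest of the other lines. LGALS9, galectin 9, was uneven within HuCCT1 at 37.1, 261 and 54.1 CPM, with the peak again in replicate 2.

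Chemokine and interleukin genes gave 11 higher and 1 lower of 34 tested (median 0.91), though 7 higher without HuCCT1 replicate 1, and the lower count was 2 without replicate 2. CXCL5, a neutrophil chemokine, had 171, 101 and 219 CPM in HuCCT1, against 1.67, 1.14 and 2.55 CPM in YSCCC and no count in KKU-100. CSF2, the gene of GM-CSF, had 20.1, 19.3 and 13.2 CPM in HuCCT1 and 3 counts over each of the other lines. IL32, a cytokine induced by TNF, averaged 115 ± 19.6 CPM in HuCCT1, against 16.02 ± 11.6 CPM in YSCCC and 5.65 ± 2.79 CPM in KKU-100 (SD, n = 3 each). IL1R1, the signalling IL-1 receptor, was lower at 4.82 CPM on average in HuCCT1, against 152 CPM in YSCCC and 55.3 CPM in KKU-100, while the decoy receptor IL1R2 was higher. Of 20 NF-kappaB genes, TNF, ICAM1, LTB and NFKBIZ were higher and REL was lower. The list median was 0.58, with 1.28 against YSCCC and -0.06 against KKU-100. The NFKBIZ call was lost without HuCCT1 replicate 1 or YSCCC replicate 1 or 3 (log2 difference from YSCCC 0.70, 0.88 and 0.90), and with DESeq2 or limma-voom. TNF had 8.84, 7.44 and 7.47 CPM in HuCCT1, against 0.245, 0.532 and 0.790 CPM in YSCCC and 0.627, 0.270 and 0.145 CPM in KKU-100. ICAM1, a leukocyte adhesion ligand, averaged 86.0 CPM in HuCCT1, against 1.78 CPM in YSCCC and 15.6 CPM in KKU-100. Without YSCCC replicate 3, 2 genes of this list were called lower.

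Genes of the NRF2 response and of carbonyl detoxification gave 11 lower and 2 higher of 29 tested. The lower share, 37.9%, was close to that of the hepatocyte genes (37.5%, 3 of 8), and 8 to 11 genes were lower with each library left out in turn. Their median was -1.18, or -1.42 with genes at 0 in a line set at their bound. AKR1C2 and AKR1C3, reductases of steroids and carbonyls, averaged 2.01 and 1.92 CPM in HuCCT1, against 45.8 and 76.4 CPM in YSCCC and 908 and 443 CPM in KKU-100. AKR1C genes share most of their sequence, so the division of reads among them is uncertain. AKR1B1, aldose reductase, had 33.7, 28.8 and 34.3 CPM in HuCCT1, against 286, 371 and 257 CPM in YSCCC and 546, 877 and 868 CPM in KKU-100. ALDH1A1, a retinaldehyde dehydrogenase, averaged 0.354 CPM in HuCCT1, against 2.97 CPM in YSCCC and 4.64 CPM in KKU-100. Its paralog ALDH1A3 was among the higher genes, with 351, 409.7 and 369.8 CPM in HuCCT1, against 83.7, 141 and 34.7 CPM in YSCCC and 3.97, 10.2 and 6.14 CPM in KKU-100. With HuCCT1 replicate 2 and YSCCC replicate 3 both left out, 7 genes of the list were lower.

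Metabolic lists otherwise moved in single genes. Of 27 hypoxia and glycolysis genes, SLC16A3, a lactate exporter, was higher and LDHB and ADM, a vasodilator peptide, lower. The list median was -0.05, with 0.34 against YSCCC and -0.11 against KKU-100. SLC16A3 averaged 209 CPM in HuCCT1, against 30.2 CPM in YSCCC and 71.0 CPM in KKU-100. Of 25 cholesterol synthesis genes (median 0.84), 4 were called, all higher, but 2 without HuCCT1 replicate 2. EBP, a sterol isomerase, had 182, 190.4 and 214 CPM in HuCCT1, against 49.4, 31.9 and 36.2 CPM in YSCCC and 8.05, 19.8 and 24.6 CPM in KKU-100. Of 22 fatty acid and lipid droplet genes tested (median 0.33), ACSL5, FADS2 and DGAT1 were higher and CD36 and PLIN2 lower, and FADS2, DGAT1 and PLIN2 each lost the call without 1 of several libraries. The shares, 13.6% higher and 9.09% lower, were near the 10.5% and 9.08% of all tested genes. Without HuCCT1 replicate 1 or 3, the list had 2 higher and 1 lower, and without KKU-100 replicate 3, 3 higher and 1 lower. ACSL5, an acyl-CoA synthetase, had 85.6, 132 and 93.9 CPM in HuCCT1, against 7.39, 9.49 and 7.11 CPM in YSCCC and 1.99, 10.8 and 6.91 CPM in KKU-100. CD36, a fatty acid importer, had 3 counts over HuCCT1, against 303, 411 and 62.0 CPM in YSCCC and 0.941, 0.901 and 4.49 CPM in KKU-100.

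The amino acid and folding lists depended on single libraries, YSCCC replicate 3 among them. Of 24 ATF4 and amino acid genes, PSAT1 and ATF3 were lower, and PSAT1 alone without HuCCT1 replicate 2 or 3 or YSCCC replicate 3. The list median was -0.23, with 0.61 against YSCCC and -1.16 against KKU-100. Of 19 endoplasmic reticulum chaperone genes (median -0.78), 3 were lower, but none without HuCCT1 replicate 1 and 1 without YSCCC replicate 3. HERPUD1, an ER stress gene, had 82.8, 82.2 and 62.2 CPM in HuCCT1, against 118, 101 and 496 CPM in YSCCC and 326, 231 and 201 CPM in KKU-100, with YSCCC replicate 3 far above the others of its line, and its call was lost without HuCCT1 replicate 1 or 3, YSCCC replicate 3 or KKU-100 replicate 1.

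Transporters of the bile duct and drug transporters gave 4 higher and 2 lower of 18 tested. The list median was -0.06, with -0.27 against YSCCC and 0.47 against KKU-100. SLC22A3 is described above. SLCO1B3, an organic anion transporter of hepatocytes, had 185, 160.3 and 146 CPM in HuCCT1, against 0.0408, 0.228 and 0.144 CPM in YSCCC and 88.1, 72.2 and 69.3 CPM in KKU-100. It lies in a run of 4 higher SLCO1 genes on chromosome 12, whose near-identical and overlapping transcripts make the division of reads uncertain. ABCC1, a drug efflux pump, had 70.4, 82.6 and 92.8 CPM in HuCCT1, against 189, 202 and 189 CPM in YSCCC and 1073, 787 and 894 CPM in KKU-100. ABCC2, the canalicular export pump, lost its call without HuCCT1 replicate 1, 2 or 3, YSCCC replicate 1 or 2, or KKU-100 replicate 1 or 3. The number of lower transporters was 1 without HuCCT1 replicate 2 or 3, YSCCC replicate 1 or 2, or KKU-100 replicate 1 or 3, and 4 without YSCCC replicate 3.

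Glycosyltransferases gave 5 called genes of 26 tested, all higher (median 0.52, but -0.23 against YSCCC and 1.16 against KKU-100). GALNT5, which starts mucin-type O-glycans, had 208, 433 and 295 CPM in HuCCT1, against 0.816, 1.06 and 0.431 CPM in YSCCC and no count in KKU-100, at least 6444-fold above KKU-100. GALNT14, another starter enzyme, had 33.2, 53.9 and 34.1 CPM in HuCCT1, against 0.367, 0.0380 and 0.359 CPM in YSCCC and again no count in KKU-100. ST6GALNAC1, which caps these glycans as sialyl-Tn, averaged 6.56 CPM in HuCCT1, against 0.131 CPM in YSCCC and none in KKU-100. FUT2, the secretor fucosyltransferase, averaged 22.6 CPM in HuCCT1, against 1.24 CPM in YSCCC and 1.89 CPM in KKU-100. These O-glycan and fucosylation genes were higher beside the mucins described above.

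S100 genes gave 1 higher and 2 lower of 15 tested (median 0.51). S100A2, a basal epithelial calcium-binding protein, had 50.5, 90.1 and 84.6 CPM in HuCCT1, against 1.14, 1.22 and 0.467 CPM in YSCCC and 2.40, 2.39 and 1.93 CPM in KKU-100. S100A9, a calprotectin subunit, had 1.07, 1.32 and 1.20 CPM in HuCCT1, against 647, 733 and 487 CPM in YSCCC and 7.53, 5.36 and 13.3 CPM in KKU-100. S100P, a marker often raised in biliary and pancreatic cancer, averaged 0.273 CPM in HuCCT1, against 15.4 CPM in YSCCC and 77.7 CPM in KKU-100. The list had 2 higher and 3 lower without YSCCC replicate 3, and 2 higher without KKU-100 replicate 3.

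Several p53 targets were lower in HuCCT1 beside higher CDK inhibitors of the INK4 family. Of 25 p53 target and CDK inhibitor genes tested, CDKN2A, CDKN2B, CDKN2D and the neighbouring MTAP were higher. MDM2, CDKN1A, SESN1, TP53INP1 and ZMAT3, all direct p53 targets, were lower. The list median was -0.20, with 0.4 against YSCCC and -0.32 against KKU-100. MDM2, the p53 ubiquitin ligase, had 62.4, 68.4 and 59.4 CPM in HuCCT1, against 205, 297 and 133 CPM in YSCCC and 551, 637 and 399 CPM in KKU-100. SESN1, a stress-response protein, had 2.38, 2.35 and 2.45 CPM in HuCCT1, against 16.7, 22.7 and 11.2 CPM in YSCCC and 13.7, 15.8 and 11.6 CPM in KKU-100. Neither gene overlapped between HuCCT1 and the other lines. TP53INP1 lost its call without KKU-100 replicate 2.

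All 34 cell cycle genes tested had a positive difference, but 7 were called and the count depended on single libraries. It was 4 without HuCCT1 replicate 1, 3 without HuCCT1 replicate 3, 3 without YSCCC replicate 3 and 12 without KKU-100 replicate 1. The median was 1.94. The summed level was 5129, 5773 and 7929 CPM in HuCCT1, against 4075, 3990 and 1164 CPM in YSCCC and 1525, 619.6 and 667 CPM in KKU-100. MCM7, a replicative helicase subunit, had 149, 203 and 262 CPM in HuCCT1, against 63.9, 66.8 and 33.4 CPM in YSCCC and 53.6, 48.9 and 50.5 CPM in KKU-100. AURKB, a mitotic kinase, averaged 93.7 CPM in HuCCT1, against 18.2 CPM in YSCCC and 3.80 CPM in KKU-100. The part of growth state in the other differences was not tested. In these bulk libraries of HuCCT1, more cells in cycle and more of these RNAs per cell cannot be told apart.

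Cancer-testis genes, germline genes often reactivated in tumours, gave 5 lower and 1 higher of 18 tested, with a median of -5.01, or -4.50 with genes at 0 at their bound. The median was -9.28 against YSCCC and -1.68 against KKU-100. The summed level was 17.04 to 19.8 CPM in HuCCT1, against 651 to 939 CPM in YSCCC and 2.95 to 16.3 CPM in KKU-100. DDX43, a germline RNA helicase, was the higher one, with 17.0, 15.8 and 18.3 CPM in HuCCT1, against 2 counts in YSCCC and 7 in KKU-100. SSX1 had no count in HuCCT1 and averaged 2.02 CPM in YSCCC and 0.710 CPM in KKU-100. MAGEA3 had 0.123, 0.330 and 0.124 CPM in HuCCT1, against 140.4, 152 and 116 CPM in YSCCC and 4.44, 2.66 and 0.676 CPM in KKU-100, with near-identical MAGEA copies that make its own share uncertain. Of 13 imprinted genes tested (median 0.30), PLAGL1, MEST and PEG10 were higher and IGF2R lower, the last a call that was lost without any 1 of 6 libraries, such as HuCCT1 replicate 1. MEST averaged 24.9 CPM in HuCCT1, against 0.0765 CPM in YSCCC and 5.90 CPM in KKU-100, and PLAGL1 averaged 28.3 CPM, against 3.02 CPM in YSCCC and 0.0795 CPM in KKU-100.

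Markers of other cell types were low or mixed. Of 20 stromal, endothelial and immune genes, 14 were tested (median -0.14, with -2.09 against YSCCC and 1.74 against KKU-100). VWF was higher and COL3A1, PECAM1 and RGS5 lower. The summed level of the list was 70.6 to 130.9 CPM in HuCCT1, against 167.9 to 330.7 CPM in YSCCC and 74.3 to 133.4 CPM in KKU-100. PTPRC, the pan-leukocyte gene, had at most 0.0830 CPM in any HuCCT1 library, CD3D and CD3E at most 0.166 CPM, and MS4A1 no count there, while CD68, a lysosomal gene of macrophages and other cells, had 40.8, 102.1 and 60.1 CPM. Whether other cells contributed to the RAC2 and ITGB2 levels was not tested. VWF itself averaged 2.93 CPM in HuCCT1, against 0.502 CPM in YSCCC and 0.168 CPM in KKU-100. RGS5, a pericyte gene, lost its call without HuCCT1 replicate 1 or 3 or YSCCC replicate 3 (adjusted p from YSCCC 0.0993, 0.11 and 0.0812). Without a single library the higher count was 1 or 2, being 2 without HuCCT1 replicate 3 or any 1 library of the other lines. Of 10 neural and neuroendocrine genes tested (median -2.67, or -1.92 with genes at 0 at their bound), L1CAM, an adhesion molecule, was higher, with 416, 558 and 509 CPM in HuCCT1, against 44.3, 25.2 and 10.3 CPM in YSCCC and 26.5, 19.3 and 21.02 CPM in KKU-100. MAP2, a neuronal microtubule protein, was lower at 1.08 CPM on average in HuCCT1, against 40.3 CPM in YSCCC and 101 CPM in KKU-100, and a second gene was lower without KKU-100 replicate 2. The neural shares, 10% higher and 10% lower, were near the 10.5% and 9.08% of all tested genes.

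**Figure D4:**
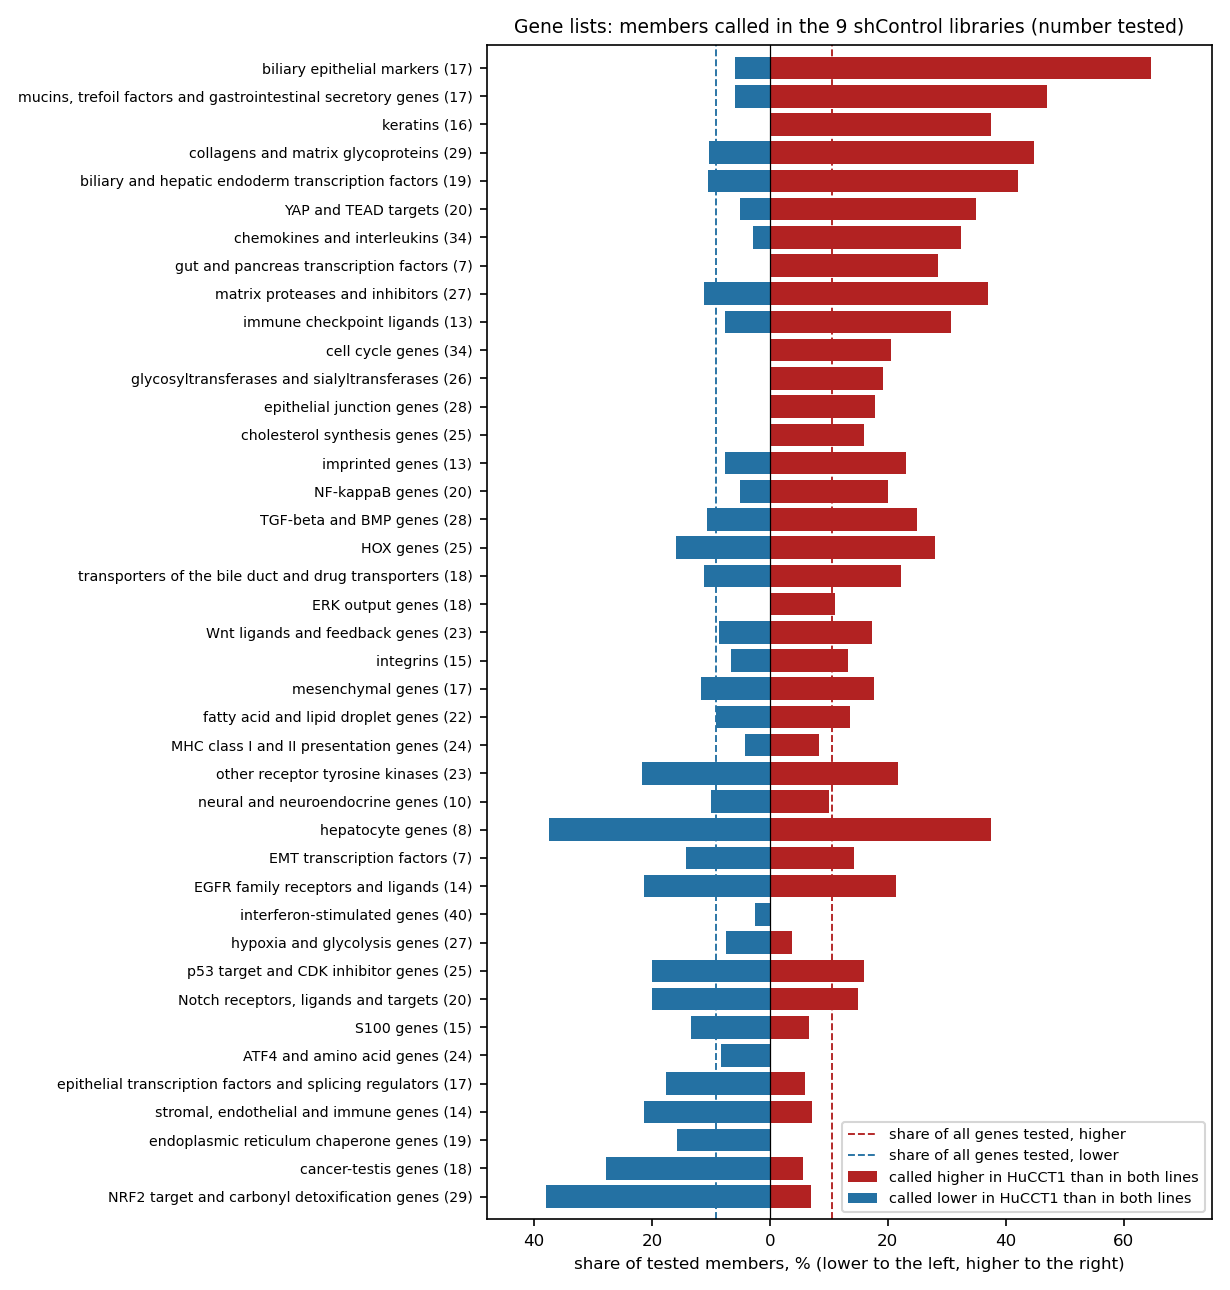
For each gene list, the percent of its tested members higher (red) and lower (blue) in HuCCT1 than in both other lines, with dashed lines at 10.5% and 9.08%, the shares over all tested genes. Biliary epithelial markers, mucins and collagens extend farthest above the background for higher genes, NRF2 target and hepatocyte genes extend farthest among lower genes, and interferon-stimulated genes lie near 0.

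Called genes were also neighbours in places. There were 35 runs of at least 4 consecutive genes called in 1 direction. Only tested genes with a gene symbol were ordered, so tested genes with clone-based or LINC names in between were skipped. A run of 10 lower genes lay on chromosome 19, from 36510687 to 36913029, made mostly of zinc finger genes such as ZNF260, ZNF382 and ZNF345. Its longest unbroken stretch was 7 genes without HuCCT1 replicate 2 or 3, where ZNF529-AS1 lost its call. Chromosome 17 held 9 higher genes from 48133442 to 48606414, SKAP1 and the HOXB block, and that run stayed whole without any 1 library. Protocadherins, adhesion genes arrayed on chromosome 5, gave a run of 9 lower alpha and beta genes and a run of 8 lower gamma genes. Both runs broke up without single libraries. The longest unbroken stretch of the first was 4 genes without HuCCT1 replicate 1 or YSCCC replicate 3, and 5 without HuCCT1 replicate 3 or KKU-100 replicate 2. That of the second was 3 without HuCCT1 replicate 1, and 4 without HuCCT1 replicate 2 or 3 or YSCCC replicate 1 or 2. In the alpha and beta run no gene exceeded 0.083 CPM in any HuCCT1 library, but members of the alpha and gamma clusters share exons, so their reads are not independent. Smaller runs held ETS1 and FLI1 (higher, chromosome 11), IL1RN and PAX8 (higher, chromosome 2), LAMB3 and G0S2 (higher, chromosome 1) and TEAD2 and CD37 (lower, chromosome 19). Each of these kept a stretch of at least 4 genes without any 1 library, but several other runs did not. A run of 7 lower genes on chromosome 16, from 3242028 to 3409364, had a longest stretch of 2 without HuCCT1 replicate 3 or KKU-100 replicate 1. Antisense genes within runs may share reads with their partners, since no source used here says whether strand was taken into account.

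Whole chromosomes differed in their share of calls as well. The chromosome shares cover only tested genes with a gene symbol, leaving out clone-based and LINC names. The 10.5% and 9.08% cover all tested genes, so the sets are not the same. On chromosome 16, 3.39% of 678 such genes were higher and 18.4% lower, with a median log2 difference of -0.68 from the mean of both lines. Chromosome 19 had 6.12% higher and 16.7% lower. Chromosome 11 stood at the other end, with 15.8% of 859 genes higher and 4.77% lower and a median of 0.57. The chromosome 16 median was -0.83 against YSCCC and -0.59 against KKU-100, so both pairs showed it.

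**Figure D5:**
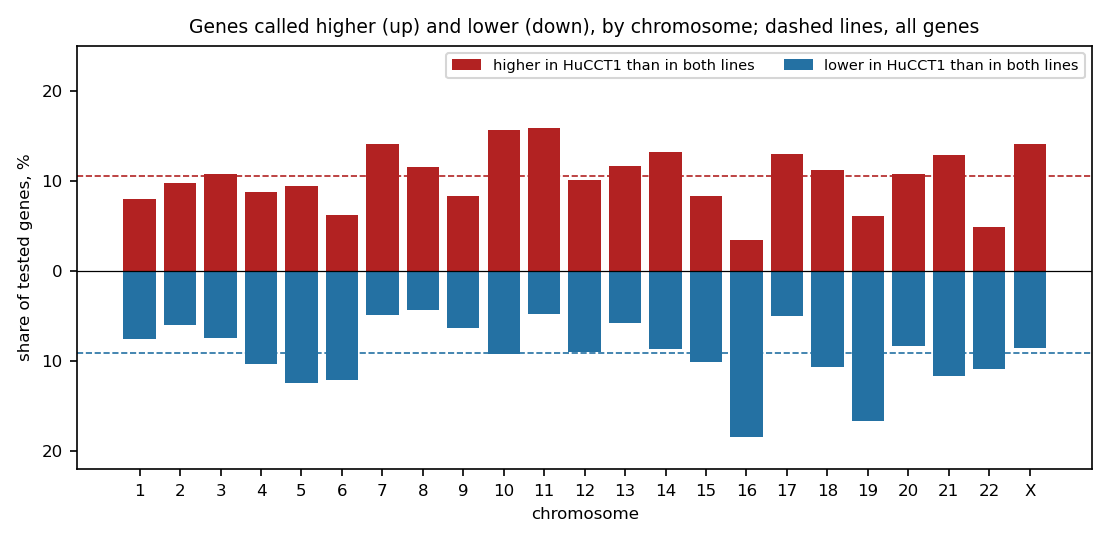
For each chromosome, the percent of tested genes with a gene symbol that were higher (red) and lower (blue) in HuCCT1 than in both other lines. Dashed lines mark the shares over all tested genes, which also include clone-based and LINC names. Chromosomes 16 and 19 have the tallest blue bars and chromosomes 11 and 10 the tallest red ones.

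Levels can be compared between genes only per length, for which the authors' deposited TPM values were used. By mean TPM, KRT7 ranked 3 among the most abundant genes of HuCCT1 outside mitochondrial and ribosomal protein genes, behind GAPDH and ACTB, at 4562 TPM in HuCCT1, against 1522 TPM in YSCCC and 300 TPM in KKU-100. KRT81 was also among the 20 most abundant genes, at 1903 TPM in HuCCT1, against 1.29 TPM in YSCCC and 5.69 TPM in KKU-100. Of these 20 genes, 6 were called: KRT7, ANXA2, KRT19, PABPC1, KRT81 and EEF2, all higher. ANXA2, a membrane-binding protein, lost the call without HuCCT1 replicate 1, YSCCC replicate 3 or KKU-100 replicate 2, and EEF2, a translation elongation factor, without HuCCT1 replicate 2 or 3 or KKU-100 replicate 1. KRT8 and KRT18, the primary simple-epithelium pair, averaged 2492 and 2501 TPM in HuCCT1, against 3287 and 3759 TPM in YSCCC and 637 and 744 TPM in KKU-100, and were not called.

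The same comparison was run in the RNF213-knockdown libraries, which the rule left out. These come from the same 3 lines, so they repeat the line difference in other libraries and not in other tumours. They are not an independent repeat, since they share deviations with the same-numbered shControl libraries, as given below. Of the 1893 higher genes, 1588 (83.9%) were called higher there too, which is 83.1% of the higher calls in those libraries. Of the 1635 lower genes, 1347 (82.4%) were called lower there, 76.2% of those calls. No gene was called in opposite directions. A test of whether the difference of HuCCT1 from the mean of both lines changed with the knockdown gave no gene of 19143 at an adjusted p under 0.05 (edgeR's quasi-likelihood test), and 329 at an unadjusted p under 0.05. Within each line, same-numbered libraries of the knockdown and shControl arms deviated together from their group means. With the replicate number within a line as a block, chosen after seeing the data, the same test gave 0 genes at an adjusted p under 0.05 and 1527 at an unadjusted p under 0.05.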

How the data were processed

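RNA was extracted from the cultured lines with TRIzol and RNeasy columns, and 750 ng of total RNA per sample went into TruSeq mRNA libraries, per the labels' protocols. The submitters' processing notes name the build GRCh38, STAR 2.5.1b, HTSeq 0.6.1p1, StringTie 2.1.6, DESeq2 1.34.0, FastQC 0.11.9 and Picard 1.139, without the role of each. No source used here states the counting step, its strand setting or its treatment of shared reads. Each library's deposited file gives raw counts per gene, whole numbers with no normalization, and TPM values that the authors scaled per gene length and library; the column names are per the file headers. All 36601 gene identifiers were read, 34616 of them (94.6%) were found in GENCODE 29, 6081 had no count in any of the 9 libraries, and every row named a gene.

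The 9 shControl libraries were fitted together in edgeR 4.0.16 (R 4.3.3): filterByExpr (minimum count 10, total 15), TMM scaling, 1 mean per line and the quasi-likelihood F test, with Benjamini-Hochberg adjustment over 18010 genes for each of HuCCT1 minus YSCCC and HuCCT1 minus KKU-100. CPM are counts over TMM-scaled totals. A group at 0 was set at 3 counts over its libraries for a bound (0.0431 CPM in HuCCT1, 0.0381 in YSCCC and 0.0484 in KKU-100), which covers counting error only. The procedure was tested on simulated counts. The deposited TPM were used for levels between genes alone.

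The 41 lists (952 genes), the comparison and its members were chosen with earlier results of these data known. Genes are named by rule: RNF213; up to 15 called genes per direction with the largest smaller difference, no overlap between libraries and a mean of at least 20 CPM; up to 4 called members per list and direction; lineage genes with at least 5 CPM in a line; genes of runs of at least 4 neighbours; and the 20 most abundant genes. That gave 430 genes, and others are list members named to complete a count or as stated. Genes on chromosome Y, XIST and some members of the lists are not reported here. Same-numbered replicates of different lines did not deviate together (Pearson's r across 10134 genes -0.314 to 0.063, against a minimum of 0.1 for pairing), so no block was used. Within a line, same-numbered libraries of the shRNF213 and shControl arms did (r 0.366 to 0.897 across 10129 genes), so the test between arms was repeated with that block. Alternatives used limma 3.58.1 and DESeq2 1.42.0, other scalings, filters and fold minimums, each library left out in turn and the knockdown libraries.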

Additional observations from a re-analysis of the deposited data

How the results depend on the processing

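The counts of 1893 higher and 1635 lower genes stayed within 1.5 times under other scalings, filters, tools and left-out libraries, and moved beyond that only with the threshold on fold. At least a 4-fold difference left 969 higher and 851 lower genes (4282 against YSCCC, 4571 against KKU-100), edgeR's glmTreat against a fold of 2 left 1169 and 967, and no minimum on fold gave 2495 lower and, within 1.5 times, 2722 higher. Leaving out 1 library gave 1757 to 1957 higher and 1481 to 1636 lower genes, 7448 to 8165 against YSCCC and 7369 to 8196 against KKU-100. DESeq2 gave 1808 and 1702, limma-voom 1965 and 1565, and leaving out HuCCT1 replicate 2 and YSCCC replicate 3 together 1873 and 1470. A replicate block gave 1844 and 1538, though the numbers share no labelled source. Higher genes made up 53.7% of calls, and 49.9% to 58.7% over all settings. Of 375 called genes among those named by rule, 317 kept the call without any 1 library and 238 in all settings, and 0 reversed. Genes under about 1 CPM rest on few counts, and all results compare 3 cultures of 1 line with 3 cultures each of 2 others.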
